A study of Mus musculus with 10 samples.

Results

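The genes for enzymes that write and erase DNA methylation and histone marks were examined in mouse liver and liver tumors. They were 62 of the 16697 gene entries with a symbol, taken by name alone: every symbol that begins with Dnmt or Suv39h, with Hdac, Sirt, Kdm, Kmt or Setd and a digit, with Ezh1, Ezh2, Uhrf1 or Uhrf2, and Tet1 to Tet3, without Kdm5c, Kdm5d and Kdm6a. The rule itself uses no measured value, but the genes were chosen with earlier results of these data known. Uhrf1bp1 and Uhrf1bp1l match by symbol only and are not known as enzymes of this kind. RNA had been sequenced from 3 groups, and the question put to them was what activated FOXO1 changes in tumors driven by c-MYC. NL was normal liver of wild-type mice (n = 4). The c-MYC group was liver tumors raised by injecting plasmids into the tail vein under pressure, which brings them into hepatocytes, with c-MYC and the empty vector pT3 (n = 3). The c-MYC/FOXO1AAA group was tumors raised in the same way with c-MYC and FOXO1AAA, a form of the transcription factor FOXO1 that stays active (n = 3). All 10 libraries carry the genotype WT in the labels. Their strain is given as C57BL/6 in the labels' characteristics and as FVB in the extraction text and the study's methods, and no age is given. The design text of the series speaks of tumors made with c-MYC and MCL1 under drug treatment, which the labels of these libraries do not name. Injected hepatocytes are a part of the liver only, and each tumor library was bulk tissue, so fewer cells of a type and less RNA per cell cannot be told apart. The study's methods give as many mice as libraries in each group, but the labels tie no library to a mouse, and the p-values measure the spread between these libraries.

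DNA methylation is laid down at new sites by Dnmt3a and Dnmt3b and copied at replication by Dnmt1, which Uhrf1 brings to newly made DNA, while the Tet enzymes oxidize methylcytosine. Histone tails are methylated by SET-domain enzymes and demethylated by Kdm enzymes, and acetyl groups are taken off by the zinc-dependent Hdac family and the NAD-dependent sirtuins. In the liver these enzymes are known for holding hepatocyte genes open, for silencing repeats, and, among the sirtuins of mitochondria, for the upkeep of fuel metabolism.

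The reads recovered for each library numbered 13123719 to 17031480 in NL, 14189660 to 14998307 in c-MYC and 13477131 to 20547746 in c-MYC/FOXO1AAA. The 62 genes took 0.125 to 0.135% of the reads in NL, 0.366 to 0.423% in c-MYC and 0.387 to 0.45% in c-MYC/FOXO1AAA. Levels are given as FPKM, fragments scaled to gene length and library size, in the order of the replicate numbers of the labels. Foxo1 stood at 6.67 to 7.86 FPKM in NL, 5.16 to 6.45 in c-MYC and 70.1 to 95.6 in c-MYC/FOXO1AAA. The Myc row stood at 4.1 to 22.2 FPKM in NL and 0.494 to 1.04 in the 6 tumor libraries, and whether it counts reads of the injected c-MYC was not tested. The sources used here do not give the species of the FOXO1AAA sequence, so the Foxo1 row may count its reads, reads of the mouse gene, or both. The hepatocyte markers Alb, Apoa1, Ttr, Cps1 and Cyp2e1 summed to 79200 to 89100 FPKM in NL, 3170 to 4970 in c-MYC and 855 to 1530 in c-MYC/FOXO1AAA, and none of the 5 was at 0 in any library.

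A gene was called where limma treat found a change above 1.5-fold at a Benjamini-Hochberg adjusted p under 0.05 among the 14017 genes tested. Of the 62 genes, 61 were tested. Tet1 was too low. Hdac9 passed the filter through the c-MYC/FOXO1AAA libraries alone, so it could only be tested because it was high there. Dnmt3b and Suv39h2 passed it through the tumor libraries and would not have passed on the NL libraries alone. Their calls against NL, counted below, are therefore a description. Fold changes are on the deposited log2 scale, which holds a prior count of 2 reads and understates changes of low genes. In c-MYC versus NL, 19 of the 61 were higher and 8 lower, where 48.1% of all genes tested were called, 24.5% higher and 23.6% lower. The 61 genes thus showed 31.1% higher and 13.1% lower calls. Their median log2 fold change was 0.51, against 0.083 over all genes. In c-MYC/FOXO1AAA versus c-MYC, 5 were higher, Hdac9 among them, and 6 lower (8.2% and 9.84%), where 28.7% of all genes were called, 15.9% higher and 12.7% lower, and the median was 0.06 against 0.026. In c-MYC/FOXO1AAA versus NL, 23 were higher and 7 lower (37.7% and 11.5%), where 57.8% of all genes were called, 31.2% higher and 26.6% lower, and the median was 0.68 against 0.21. The 3 comparisons share libraries and are given side by side. Counts of calls in the groups and lists below are to be read beside these shares over all genes.

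The split in the comparisons with NL depends on the scaling between libraries. Set to the same FPKM total, the median of all genes moved to 1.01 in c-MYC versus NL and to 1.31 in c-MYC/FOXO1AAA versus NL. The calls among the 61 became 44 higher and 1 lower in the first and 48 higher and 3 lower in the second. Of all 14017 genes tested, 7061 were then higher and 1895 lower in the first, and 8129 and 2099 in the second. In c-MYC/FOXO1AAA versus c-MYC that scaling moved the median to 0.20 and gave 7 higher and 6 lower, where all genes gave 2594 and 1482. Lower calls against NL are therefore lower relative to the other genes of the library. Genes not called against NL depend on the scaling as well. Ezh1, Hdac3, Kdm6b and Sirt1, among others, were called higher in both comparisons with NL at the same FPKM total.

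**Figure D1:**
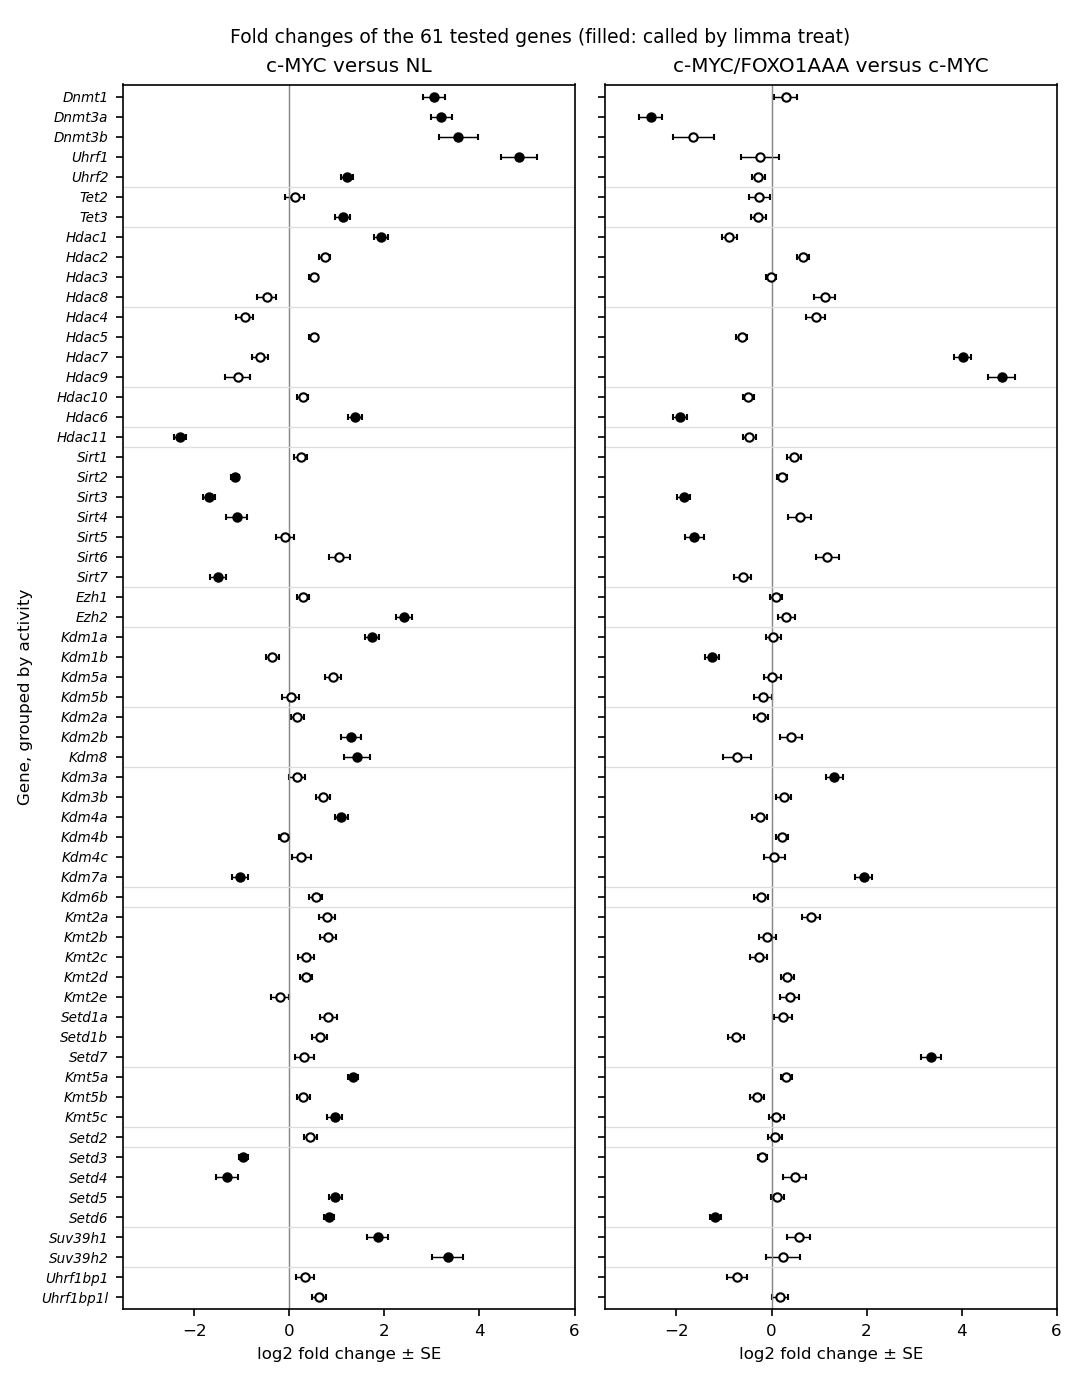
Log2 fold change ± SE (x axis) of the 61 tested genes (y axis, grouped by activity) in c-MYC versus NL (left) and c-MYC/FOXO1AAA versus c-MYC (right), with filled circles for genes called by limma treat. On the left 19 genes are called higher and 8 lower (24.5% and 23.6% over all genes tested). With libraries set to the same FPKM total these become 44 and 1, where 7061 and 1895 of all 14017 genes are called. On the right 5 and 6 are called (15.9% and 12.7% over all genes tested), with Hdac9, Hdac7 and Setd7 farthest to the right and Dnmt3a farthest to the left.

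The promoters of 4 genes on which the results below turn hold a match to a motif searched here on both strands: the E-box CACGTG, which c-MYC and other factors bind, the forkhead motif TGTTTAC, which FOXO factors bind, and the E2F motifs TTTGGCGC and TTTCCCGC of cell cycle genes. No gene held matches to 2 of these motifs. RefSeq promoters of GRCm38.p6, 250 bases before to 50 after a start, were at hand for 50 of the 62 genes (72 promoters). The other genes were Hdac1, Hdac3, Hdac10, Kdm2a, Kdm3b, Kdm4b, Kdm5a, Kdm6b, Kmt2b, Kmt2e, Setd1b and Uhrf1bp1. The matches are shown so that the letters can be read beside the values, 5′ to 3′ on the strand of the gene, with the match in capitals. For Dnmt3a and Hdac7 the 250 bases before the start are printed, and for Ezh2 and Dnmt1, where the match lies past the start, the 30 and 28 bases around it.
Dnmt3a (chr12:3891494-3891743, plus strand): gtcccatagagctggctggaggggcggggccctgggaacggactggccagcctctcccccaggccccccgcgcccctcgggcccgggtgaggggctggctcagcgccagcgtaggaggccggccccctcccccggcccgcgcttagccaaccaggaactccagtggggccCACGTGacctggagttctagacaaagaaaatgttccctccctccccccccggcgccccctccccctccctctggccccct
Hdac7 (chr15:97831768-97832017, minus strand): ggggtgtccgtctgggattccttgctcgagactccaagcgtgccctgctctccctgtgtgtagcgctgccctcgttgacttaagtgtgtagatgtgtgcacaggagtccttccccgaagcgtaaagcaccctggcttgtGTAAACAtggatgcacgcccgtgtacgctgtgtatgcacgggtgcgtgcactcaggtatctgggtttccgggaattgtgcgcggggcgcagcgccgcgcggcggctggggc
Ezh2 (chr6:47595009-47595038, minus strand): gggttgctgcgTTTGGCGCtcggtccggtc
Dnmt1 (chr9:20952574-20952601, minus strand): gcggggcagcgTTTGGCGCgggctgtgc
In Hdac7 the capitals are the reverse complement of the forkhead motif, 111 bases before a start inside the gene. In Dnmt3a the E-box begins 80 bases before a start inside the gene. The start beside the Dnmt1 match also lies inside the gene, and that beside the Ezh2 match lies near the outer edge of its gene. CACGTG was in 4 of the 72 promoters (5.56%) and in 7.15% of all 32851, in Dnmt3a, Hdac5, Kdm4c and Sirt1. TGTTTAC was in 3 (4.17%), of Hdac7, Kdm2b and Uhrf2, and in 3.65% of all. TTTGGCGC was in 2 (2.78%), of Dnmt1 and Ezh2, and in 0.514% of all, and TTTCCCGC in 2, of Kmt5c and Sirt4, and in 1.07% of all. Kdm2b and Uhrf2, the other genes with a forkhead match, were not called between the tumor groups (log2 0.41 and -0.28). Hdac5, Kdm4c and Sirt1, the other genes with an E-box, were called in no comparison. Hdac9, Setd7, Kdm7a and Kdm3a, called higher with FOXO1AAA as Hdac7 was, held no forkhead match in the promoters at hand. Uhrf1, Dnmt3b, Suv39h2, Dnmt1 and Ezh2, called higher in c-MYC versus NL as Dnmt3a was, held no E-box there. A match is a description of the letters and no site of binding.

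All 5 genes of DNA methylation rose in c-MYC tumors, under each scaling tried, and Dnmt3a alone of them was called between the tumor groups, where it fell. Dnmt1, the maintenance methyltransferase (chr9:20907209-20959888, minus strand), was at 4.35, 3.08, 2.27 and 2.6 FPKM in NL, 22.8, 28.3 and 23.8 in c-MYC and 29.9, 39.8 and 23.8 in c-MYC/FOXO1AAA. Every tumor library lay above every NL library, and the tumor groups overlapped. The rise over NL was 8.28-fold (log2 3.05 ± 0.23 SE, adjusted p = 2.77e-06). Between the tumor groups the log2 difference was 0.30 ± 0.24 (adjusted p = 1).

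Dnmt3a, which methylates new sites (chr12:3806007-3914443, plus strand), was at 5.91, 3.08, 3.7 and 3.46 FPKM in NL, 31.1, 47.1 and 32.1 in c-MYC and 5.82, 6.38 and 6.38 in c-MYC/FOXO1AAA. The c-MYC libraries stood far above both other groups, and the lowest c-MYC/FOXO1AAA library lay just below the highest NL library. Dnmt3a rose 9.21-fold (log2 3.20 ± 0.22 SE, adjusted p = 1.34e-06) in c-MYC versus NL. It fell 5.82-fold (log2 -2.54 ± 0.24 SE, adjusted p = 3.75e-05) between the tumor groups, and against NL the log2 difference was 0.66 ± 0.22 (adjusted p = 0.517). Whether c-MYC/FOXO1AAA is called above NL depends on the setting. At the same FPKM total it was (log2 1.76, adjusted p = 0.000198, limma treat), and with no fold threshold as well (limma, adjusted p = 0.0166). The fall held in each of the 19 alternatives run, with adjusted p from 2.43e-06 to 0.000684.

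Dnmt3b, the other enzyme for new sites (chr2:153649450-153687730, plus strand), was at 1.4, 0.339, 0.931 and 0.465 FPKM in NL, 7.11, 8.89 and 8.84 in c-MYC and 2.57, 3.15 and 2.19 in c-MYC/FOXO1AAA. The 3 groups did not overlap, with c-MYC highest and NL lowest. The NL values rest on 13 to 63 reads. Dnmt3b rose 11.7-fold (log2 3.55 ± 0.41 SE, adjusted p = 5.25e-05) in c-MYC and 3.73-fold (log2 1.90 ± 0.41 SE, adjusted p = 0.00838) in c-MYC/FOXO1AAA, each against NL. Dnmt3b passed the filter through the tumor libraries, where it was high, so these 2 calls are a description. Its log2 difference between the tumor groups was -1.65 ± 0.43 (adjusted p = 0.0577), which missed the threshold and passed it in 7 of 18 alternatives (adjusted p from 0.000394 to 0.335).

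Taken as shares of the summed FPKM of the 3 methyltransferases, which a factor common to a library does not change, Dnmt1 made up 37.3, 47.4, 32.9 and 39.8% in NL, 37.4, 33.6 and 36.7% in c-MYC and 78.1, 80.7 and 73.6% in c-MYC/FOXO1AAA. NL and c-MYC overlapped and c-MYC/FOXO1AAA stood apart. The mean share of Dnmt3a was 51.2 ± 2.83% in NL, 52.2 ± 3.29% in c-MYC and 15.9 ± 3.43% in c-MYC/FOXO1AAA (SD, n = 4, 3 and 3). The log2 ratio of Dnmt3b to Dnmt3a was -2.47 ± 0.56, -2.13 ± 0.27 and -1.23 ± 0.26 in the same order (SD). It differed by 0.89 between the tumor groups (exact permutation test, 2-sided, p = 0.1, the smallest that 3 against 3 allows), and by 0.34 between c-MYC and NL (exact p = 0.4).

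**Figure D2:**
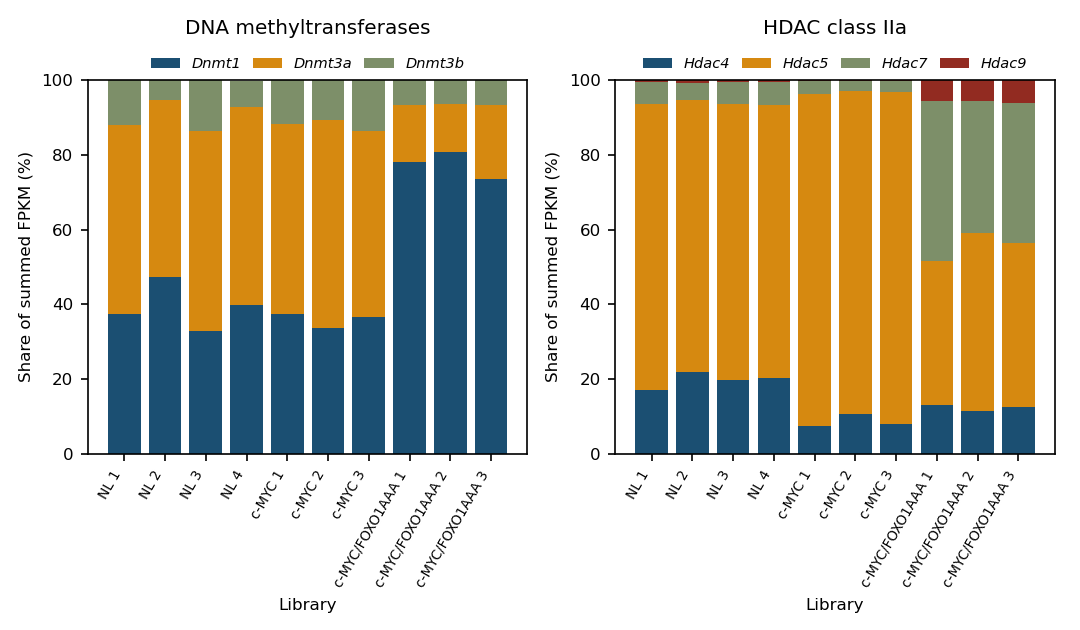
Share of the summed FPKM (y axis, percent) that each gene takes in each of the 10 libraries (x axis), for the 3 DNA methyltransferases (left) and the 4 class IIa histone deacetylases (right). Dnmt1 takes 73.6 to 80.7% in c-MYC/FOXO1AAA and 32.9 to 47.4% in the other 7 libraries, and Hdac7 takes 35.4 to 43% against 2.7 to 6.26%.

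Uhrf1, which reads hemimethylated DNA at the replication fork and recruits Dnmt1 (chr17:56303321-56323486, plus strand), had the largest fold change of the 61 in c-MYC versus NL. It was at 19.2, 4.41, 8.91 and 7.79 FPKM in NL, 228, 287 and 254 in c-MYC and 236, 244 and 174 in c-MYC/FOXO1AAA. All 6 tumor libraries stood far above NL, and the tumor groups overlapped. The rise was 28.4-fold (log2 4.83 ± 0.38 SE, adjusted p = 2.97e-06) in c-MYC and 24-fold (log2 4.58 ± 0.38 SE, adjusted p = 2.80e-06) in c-MYC/FOXO1AAA. The level of Uhrf1 per length is to be read with care, because it rests on a length of 529 bases where the longest annotated transcript has 3586. Over that longer length the means would be 1.49, 37.8 and 32.2 FPKM, and the fold changes stay as they are. Its paralog Uhrf2 was at 10.8, 8.64, 9.47 and 10.3 FPKM in NL, 26.2, 23.3 and 19.1 in c-MYC and 20.3, 19 and 16.7 in c-MYC/FOXO1AAA. Uhrf2 rose 2.32-fold (log2 1.21 ± 0.13 SE, adjusted p = 0.00101) in c-MYC versus NL, and the log2 ratio of Uhrf1 to Uhrf2 went up by 3.61 (exact permutation p = 0.0571, the smallest that 3 against 4 allows). Between the tumor groups the ratio differed by 0.04 (exact p = 0.9).

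Proliferation genes moved in the same comparison. The 11 on the list (Mki67, Top2a, Ccnb1, Cdk1, Pcna and Mcm2 to Mcm7) were all called higher in c-MYC versus NL, with a median log2 fold change of 4.23, and none of 11 was called in c-MYC/FOXO1AAA versus c-MYC (median -0.29). Their summed level was 120 FPKM in NL 1 and 66.9 to 84.7 in the other NL libraries, 777 to 828 in c-MYC and 749 to 919 in c-MYC/FOXO1AAA. NL 1 was also the highest NL library for Dnmt1, Dnmt3a, Dnmt3b, Uhrf1, Suv39h1, Suv39h2 and Ezh2, genes picked for this after their values were seen. This is not particular to them. Sirt2 and Sirt7, which fell in c-MYC versus NL, were highest in NL 1 as well (52.5 and 52.7 FPKM), while Hdac11 and Sirt3 were not. Without NL 1 the log2 fold change of Uhrf1 in c-MYC versus NL was 5.19 (limma treat, adjusted p = 2.05e-07). The part of cell division in these rises was not tested.

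**Figure D3:**
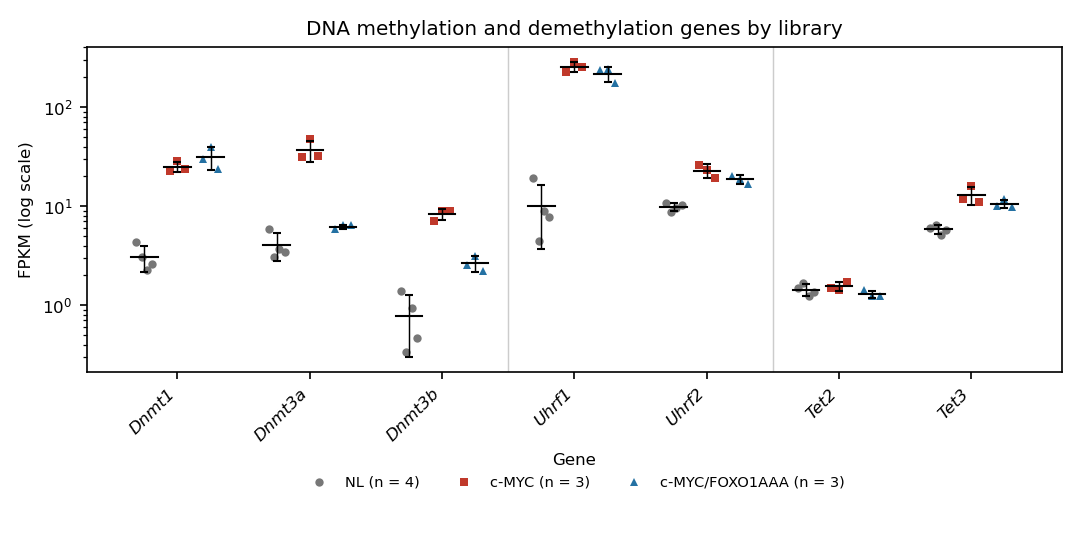
FPKM (y axis, log scale) of genes of DNA methylation and demethylation (x axis) in each library, with the mean (bar) and SD (whiskers) of NL (circles, n = 4), c-MYC (squares, n = 3) and c-MYC/FOXO1AAA (triangles, n = 3). Dnmt3a is at 31.1 to 47.1 in c-MYC and at 5.82 to 6.38 in c-MYC/FOXO1AAA, while Dnmt1 overlaps between the tumor groups. Tet1 is left out because NL 3 has no read.

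The Tet enzymes start the removal of DNA methylation. Tet1 (chr10:62804570-62908996, minus strand) was at 0.0453, 0.0607, 0 and 0.0319 FPKM in NL, 0.242, 0.254 and 0.14 in c-MYC and 0.325, 0.239 and 0.314 in c-MYC/FOXO1AAA, from 0 to 8 reads in NL and 36 to 112 in the tumors. The 0 in NL 3 allows up to 0.022 FPKM, the level of 3 reads, for counting error only. Tet2 was at 1.48, 1.69, 1.23 and 1.35 FPKM in NL, 1.48, 1.43 and 1.73 in c-MYC and 1.41, 1.23 and 1.23 in c-MYC/FOXO1AAA. Its groups overlapped apart from c-MYC/FOXO1AAA lying below c-MYC by a narrow gap, and it was called in no comparison. Tet3 was at 6.05, 6.5, 5.12 and 5.76 FPKM in NL, 11.7, 16 and 11.1 in c-MYC and 10.1, 11.7 and 9.79 in c-MYC/FOXO1AAA. All tumor libraries lay above NL, and Tet3 rose 2.18-fold (log2 1.12 ± 0.15 SE, adjusted p = 0.0055) in c-MYC. The log2 ratio of Tet1 to Tet2 differed by 2.56 between c-MYC and NL on the deposited scale (exact permutation p = 0.0571), by 1.96 without NL 3, and by 1.06 and 0.16 with pseudocounts of 0.1 and 1 (exact p = 0.229 for the last). Its size is set by the reads of Tet1 in NL and the count added to them.

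Of the 4 genes for methylation of H3K9 and H3K27, the marks of silent chromatin, 3 rose in c-MYC versus NL and none of 4 was called between the tumor groups. Suv39h1 (chrX:8061171-8074760, minus strand) was at 4.58, 2.19, 3.93 and 3.95 FPKM in NL, 12.3, 13.6 and 13.1 in c-MYC and 19, 23.1 and 16.6 in c-MYC/FOXO1AAA. The groups did not overlap, in the order NL, c-MYC, c-MYC/FOXO1AAA. It rose 3.64-fold (log2 1.86 ± 0.22 SE, adjusted p = 0.0003) in c-MYC and 5.42-fold (log2 2.44 ± 0.22 SE, adjusted p = 1.35e-05) in c-MYC/FOXO1AAA, against NL. Annotated antisense transcripts cover 14.6% of its exon bases, and the strand setting of the counting is not given in the sources used here.

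Suv39h2, which makes the same mark (chr2:3455815-3475031, minus strand), was at 0.939, 0.348, 0.671 and 0.304 FPKM in NL, 6.46, 5.02 and 5.92 in c-MYC and 6.61, 8.08 and 5.96 in c-MYC/FOXO1AAA. It was under 1 FPKM in every NL library, on 5 to 19 reads, and at 5.02 or more in every tumor. Its rise in c-MYC was 10.1-fold (log2 3.33 ± 0.33 SE, adjusted p = 1.83e-05). Suv39h2 could be tested only because it was high in the tumors, so this call is a description. The log2 ratio of Suv39h1 to Suv39h2 was 2.63 ± 0.55 in NL, 1.16 ± 0.25 in c-MYC and 1.49 ± 0.03 in c-MYC/FOXO1AAA (SD), a difference of -1.47 for c-MYC versus NL (exact permutation p = 0.0571).

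Ezh2, the catalytic subunit of Polycomb repressive complex PRC2 in dividing cells (chr6:47530139-47595341, minus strand), was at 2.7, 1.71, 2.61 and 1.92 FPKM in NL, 12, 11.9 and 12.1 in c-MYC and 16, 15.5 and 13.1 in c-MYC/FOXO1AAA. NL was lowest, and the c-MYC/FOXO1AAA libraries stood slightly above c-MYC. Ezh2 rose 5.37-fold (log2 2.42 ± 0.17 SE, adjusted p = 2.57e-06) in c-MYC, and between the tumor groups the log2 difference was 0.31 ± 0.18 (adjusted p = 1). Ezh1, its paralog of resting cells, was at 5.45, 5.13, 5.44 and 5.64 FPKM in NL, 6.8, 7.17 and 5.97 in c-MYC and 7.51, 7.65 and 6.23 in c-MYC/FOXO1AAA, and it was not called in any comparison. The log2 ratio of Ezh2 to Ezh1 went from -1.28 ± 0.30 in NL to 0.85 ± 0.15 in c-MYC and 1.06 ± 0.04 in c-MYC/FOXO1AAA (SD). It was below 0 in every NL library and above 0 in every tumor library (c-MYC versus NL, exact permutation p = 0.0571). Kdm6b, which takes H3K27 methylation off, was at 8.61, 6.86, 5.83 and 6.58 FPKM in NL, 10.4, 11.2 and 8.95 in c-MYC and 8.46, 9.01 and 8.61 in c-MYC/FOXO1AAA and was not called.

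Of the 9 PRC2 partners listed, 5 were higher and 1 lower in c-MYC versus NL, with a median log2 fold change of 1.32. Over all genes tested, 24.5% were higher and 23.6% lower. Suz12, a core subunit (log2 1.72, adjusted p = 6.88e-06, limma treat), and the histone binder Rbbp7 (log2 2.28, adjusted p = 8.29e-07) rose, and the accessory subunit Phf1 fell (log2 -2.33, adjusted p = 0.000152). Only Phf19 was called of the 9 between the tumor groups, and it rose (log2 1.99, adjusted p = 0.00737). Suz12, Rbbp7 and Phf1 kept these calls under the 3 other scalings, and the call of Phf19 was lost with quantile normalization (adjusted p = 0.0619).

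Kmt5a, which puts the first methyl group on H4K20 during the cell cycle (chr5:124439930-124462308, plus strand), was at 22, 18.2, 19.4 and 19.6 FPKM in NL, 48.8, 55.2 and 46.8 in c-MYC and 64.9, 67.9 and 54.2 in c-MYC/FOXO1AAA. Tumor and NL libraries did not overlap, and the rise was 2.53-fold (log2 1.34 ± 0.11 SE, adjusted p = 7.76e-05) in c-MYC and 3.14-fold (log2 1.65 ± 0.11 SE, adjusted p = 3.94e-06) in c-MYC/FOXO1AAA. Kmt5c rose as well in c-MYC (log2 fold change 0.95 ± 0.15 (SE), adjusted p = 0.0395), and Kmt5b did not pass the test. None of the 3 was called between the tumor groups.

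The 8 genes of H3K4 methylation held a single call between the tumor groups, Setd7. Setd7 adds a methyl group to H3K4 and to other proteins (chr3:51515319-51560879, minus strand). It was at 1.36, 1.92, 2.05 and 1.34 FPKM in NL, 1.83, 2.11 and 2.18 in c-MYC and 24.8, 19.8 and 18.5 in c-MYC/FOXO1AAA. NL and c-MYC overlapped, and every c-MYC/FOXO1AAA library was far above both. The rise was 10.2-fold (log2 3.35 ± 0.21 SE, adjusted p = 1.47e-06) over c-MYC, and the log2 difference of c-MYC versus NL was 0.31 ± 0.20 (adjusted p = 1). The large Kmt2 enzymes, Kmt2a to Kmt2e, and Setd1a and Setd1b had no call in c-MYC versus NL or c-MYC/FOXO1AAA versus c-MYC. Kmt2a had means of 1.6 ± 0.124, 2.77 ± 0.158 and 4.95 ± 0.74 FPKM (SD) and a rise of 3.06-fold (log2 1.61 ± 0.16 SE, adjusted p = 0.000117) in c-MYC/FOXO1AAA versus NL. Of the 5 COMPASS core subunits that serve these enzymes, 3 were higher in c-MYC versus NL (Wdr5, Ash2l and Dpy30) and none of 5 was called between the tumor groups. Setd2, the H3K36 methyltransferase, had a log2 difference of 0.44 ± 0.14 (adjusted p = 1) in c-MYC versus NL and was not called in any comparison.

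The other SET-domain genes split. Setd4 (chr16:93583457-93604063, minus strand) was at 4.66, 4.98, 2.98 and 3.15 FPKM in NL, 1.7, 1.57 and 1.31 in c-MYC and 1.92, 2.09 and 2.48 in c-MYC/FOXO1AAA. The groups did not overlap, with NL highest and c-MYC lowest. It fell 2.49-fold (log2 -1.31 ± 0.23 SE, adjusted p = 0.0102) in c-MYC versus NL, and lost the call when libraries were set to the same FPKM total (log2 -0.39). Setd6, known to methylate the NF-κB subunit RelA (chr8:95715881-95719010, plus strand), was at 18.2, 14.9, 15.5 and 16.6 FPKM in NL, 32.4, 26.6 and 28.5 in c-MYC and 11.9, 12.8 and 13.9 in c-MYC/FOXO1AAA. The c-MYC libraries stood above both other groups. Setd6 fell 2.26-fold (log2 -1.18 ± 0.12 SE, adjusted p = 0.0012) between the tumor groups. Its rise in c-MYC versus NL (log2 fold change 0.83 ± 0.11 (SE), adjusted p = 0.0458) was lost in 13 of 20 alternatives, leaving out NL 2, NL 3, NL 4, c-MYC 1 or c-MYC 3 among them (adjusted p from 0.0665 to 0.169). Setd3, an actin methyltransferase, was lower in c-MYC (log2 fold change -0.97 ± 0.09 (SE), adjusted p = 0.00153), and Setd5 was higher (log2 fold change 0.97 ± 0.13 (SE), adjusted p = 0.0177).

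Among the 14 demethylase genes of histones, 2 rose and 1 fell in c-MYC/FOXO1AAA versus c-MYC, where 15.9% and 12.7% of all genes tested did. Kdm7a, which acts on H3K9 and H3K27 (chr6:39136623-39206789, minus strand), was at 2.38, 2.45, 2.31 and 2.49 FPKM in NL, 1.13, 1.17 and 1.2 in c-MYC and 5.44, 4.49 and 3.73 in c-MYC/FOXO1AAA. The 3 groups did not overlap, with c-MYC lowest and c-MYC/FOXO1AAA highest. It rose 3.83-fold (log2 1.94 ± 0.18 SE, adjusted p = 8.93e-05) over c-MYC. Its fall in c-MYC versus NL (log2 fold change -1.04 ± 0.17 (SE), adjusted p = 0.0255) was lost in 7 of 19 alternatives, among them without NL 4 (adjusted p = 0.0518) and without c-MYC 1 (adjusted p = 0.0584).

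Kdm3a, which removes the lower H3K9 methyl states (chr6:71588972-71632990, minus strand), was at 2.97, 3.15, 2.22 and 2.69 FPKM in NL, 2.96, 2.85 and 3.39 in c-MYC and 8.95, 7 and 7.22 in c-MYC/FOXO1AAA. NL and c-MYC overlapped and c-MYC/FOXO1AAA lay above both, a rise of 2.5-fold (log2 1.32 ± 0.18 SE, adjusted p = 0.00429) over c-MYC. Kdm1b, a flavin-dependent H3K4 demethylase (chr13:47043499-47085279, plus strand), was at 14.4, 15.3, 14 and 14.4 FPKM in NL, 10.1, 14.4 and 9.85 in c-MYC and 5.09, 4.21 and 4.88 in c-MYC/FOXO1AAA. The 3 lowest libraries were those with FOXO1AAA. Kdm1b fell 2.39-fold (log2 -1.25 ± 0.15 SE, adjusted p = 0.00292) against c-MYC. Its sister enzyme Kdm1a had means of 8.85 ± 0.938, 30 ± 5.62 and 30.4 ± 1.02 FPKM (SD) and rose in c-MYC versus NL (log2 fold change 1.74 ± 0.14 (SE), adjusted p = 1.58e-05). Kdm4a, Kdm2b and Kdm8 also rose in c-MYC versus NL, by log2 1.09, 1.29 and 1.42 (limma treat). Apart from these and Kdm7a, 9 histone demethylase genes were not called in c-MYC versus NL.

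**Figure D4:**
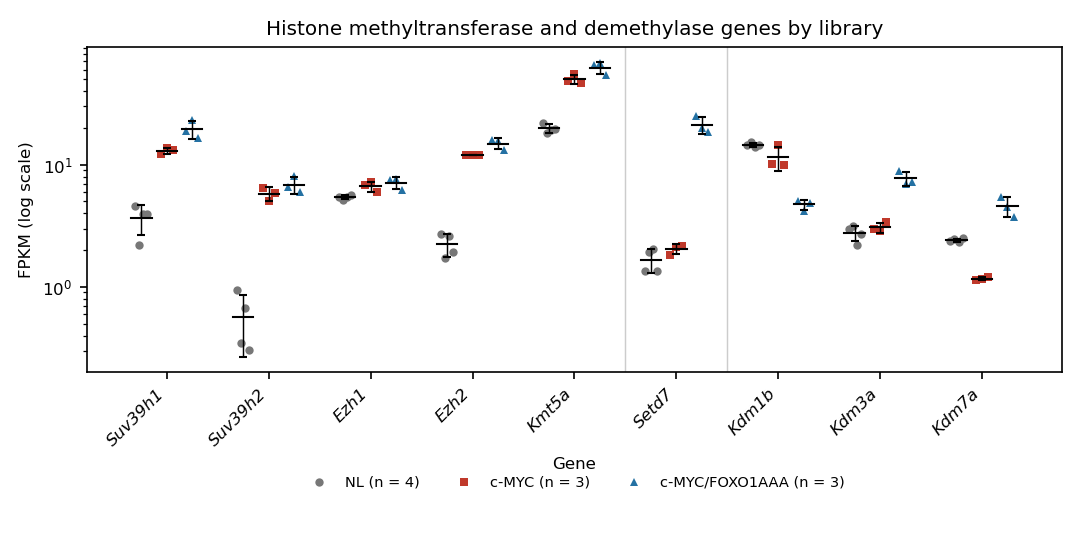
FPKM (y axis, log scale) of histone methyltransferase and demethylase genes (x axis) in each library, with the mean (bar) and SD (whiskers) of NL (circles, n = 4), c-MYC (squares, n = 3) and c-MYC/FOXO1AAA (triangles, n = 3). Setd7 is at 18.5 to 24.8 in c-MYC/FOXO1AAA and at 1.34 to 2.18 in the other 7 libraries, and Ezh2 and Suv39h2 separate NL from both tumor groups.

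Of the class I histone deacetylases, Hdac1, Hdac2 and Hdac3 serve the nuclear Sin3, NuRD, CoREST and NCoR complexes. Hdac1 (chr4:129516104-129542713, minus strand) was at 9.06, 6.04, 8.39 and 9.24 FPKM in NL, 30.5, 33.6 and 29.1 in c-MYC and 17.4, 17.7 and 15.1 in c-MYC/FOXO1AAA. The 3 groups did not overlap, and c-MYC was highest. It rose 3.82-fold (log2 1.93 ± 0.15 SE, adjusted p = 1.00e-05) in c-MYC and 2.06-fold (log2 1.04 ± 0.15 SE, adjusted p = 0.0111) in c-MYC/FOXO1AAA, against NL, and the log2 difference between the tumor groups was -0.89 ± 0.16 (adjusted p = 0.122). Hdac2 was at 15.6, 12.9, 13 and 15.6 FPKM in NL, 24.1, 21.8 and 25.6 in c-MYC and 36.3, 34.5 and 42.3 in c-MYC/FOXO1AAA. Its groups did not overlap either, but c-MYC/FOXO1AAA was highest. Hdac2 was called in c-MYC/FOXO1AAA versus NL only (log2 fold change 1.40 ± 0.12 (SE), adjusted p = 4.72e-05). As shares of the summed class I FPKM, Hdac1 took 16.8 ± 2.12% in NL, 34.6 ± 3.01% in c-MYC and 18.3 ± 2.41% in c-MYC/FOXO1AAA, and Hdac2 took 29.5 ± 0.975%, 26.5 ± 2.22% and 41.1 ± 2.35% (SD).

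Hdac3, the deacetylase of the NCoR complexes, was at 26.2, 21.7, 22 and 22.7 FPKM in NL, 35.6, 31.2 and 31.9 in c-MYC and 32.4, 30.7 and 34.8 in c-MYC/FOXO1AAA. The tumor libraries lay above NL, the difference of 0.51 ± 0.10 (SE) on the log2 scale did not pass the test for a change above 1.5-fold, and the tumor groups overlapped. Of 12 corepressor subunits of Sin3, CoREST, NCoR and NuRD, 4 were higher and 1 lower in c-MYC versus NL, where 24.5% and 23.6% of all genes tested were. Their median log2 was 0.73, and none of 12 was called between the tumor groups. The lower gene was the NuRD helicase Chd3 (log2 -1.41, adjusted p = 0.018, limma treat), which lost its call at the same FPKM total and with quantile normalization (log2 -0.48 and -0.86). Its paralog Chd4 rose (log2 1.46, adjusted p = 7.45e-05).

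Class IIa deacetylases move between nucleus and cytoplasm and bind MEF2 transcription factors. Between the tumor groups Hdac7 and Hdac9 of this class were higher with FOXO1AAA, and none of the 4 genes was called in c-MYC versus NL. Hdac7, whose promoter with a forkhead match is printed above (chr15:97792664-97844502, minus strand), was at 1.49, 1.15, 1.41 and 1.56 FPKM in NL, 0.911, 0.874 and 0.923 in c-MYC and 17.4, 14.5 and 13.7 in c-MYC/FOXO1AAA. The c-MYC libraries lay just below NL and the c-MYC/FOXO1AAA libraries far above both. The rise was 16.2-fold (log2 4.02 ± 0.18 SE, adjusted p = 1.28e-07) over c-MYC and 10.6-fold (log2 3.41 ± 0.17 SE, adjusted p = 6.87e-08) over NL. Hdac9 (chr12:34047580-34917095, minus strand) was at 0.122, 0.172, 0.138 and 0.12 FPKM in NL, 0.0588, 0.0573 and 0.0294 in c-MYC and 2.22, 2.25 and 2.24 in c-MYC/FOXO1AAA. That is 4 to 6 reads in each NL library, 2 to 4 in each c-MYC library and 163 to 249 in each c-MYC/FOXO1AAA library. The fitted log2 difference from c-MYC, 4.84, is a description: it depends on the prior count, and Hdac9 was tested only because it was high in c-MYC/FOXO1AAA.

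Hdac4 and Hdac5 of the same class had means of 4.87 ± 0.447, 2.57 ± 0.725 and 4.8 ± 0.364 FPKM and of 18.4 ± 0.687, 26.3 ± 1.9 and 17.1 ± 2.19 FPKM (SD), in the order NL, c-MYC, c-MYC/FOXO1AAA. Neither was called in any comparison. Hdac5 took 74.2 ± 1.68% of the summed class IIa FPKM in NL and 88.3 ± 1.39% in c-MYC. In c-MYC/FOXO1AAA it took 43.4 ± 4.61%, beside 38.6 ± 3.91% for Hdac7 and 5.71 ± 0.372% for Hdac9 (SD).

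Markers of other cell types moved in the same comparison as Hdac7, Hdac9 and Setd7. Of the 4 skeletal muscle markers, 3 rose between the tumor groups, and their summed level was 0.0406 to 0.165 FPKM in NL, 0.639 to 4.79 in c-MYC and 114 to 172 in c-MYC/FOXO1AAA. Myod1 and Myog, the defining muscle factors, had 0 reads in all 7 NL and c-MYC libraries. They averaged 5.25 ± 1.59 and 25.8 ± 8.96 FPKM in c-MYC/FOXO1AAA (SD, n = 3). Acta1, also called, averaged 0.0183 FPKM in NL, 0.113 in c-MYC and 110 in c-MYC/FOXO1AAA. Like Hdac9, Myod1, Myog and Acta1 were tested only because they were high in c-MYC/FOXO1AAA, so their calls are a description. Of the 5 stellate cell and fibroblast markers, 3 rose, and the sum was 17.2 to 20.2 FPKM in NL, 8.28 to 25 in c-MYC and 84.6 to 119 in c-MYC/FOXO1AAA. The endothelial markers summed to 17 to 20.2, 9.57 to 16.8 and 25.4 to 40.4 FPKM, with Cdh5 as the single call of 4 tested, and the 3 lymphocyte markers listed summed to 1.21 to 2.4, 1.9 to 2.12 and 8.18 to 12.4 FPKM, with Cd79a as the single call of 2 tested. Cd79a, too, was tested only because it was high in c-MYC/FOXO1AAA (means of 0.293 FPKM in NL, 0.136 in c-MYC and 9.44 in c-MYC/FOXO1AAA). Neutrophil markers overlapped between the groups. The macrophage markers summed to 194 to 341 FPKM in NL, 95 to 136 in c-MYC and 45.6 to 77.9 in c-MYC/FOXO1AAA, with 1 of 6 called higher and 1 lower between the tumor groups. Cholangiocyte markers summed to 2.17 to 4.44, 15.2 to 30.6 and 4.53 to 11.7 FPKM, with 1 of 3 tested higher and 1 lower. The part of these cells in the rises of Hdac7, Hdac9 and Setd7 was not tested.

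The class IIb gene Hdac6 was called in opposite directions in the comparisons on c-MYC. Hdac6, a cytoplasmic deacetylase of tubulin (chrX:7930120-7947889, minus strand), was at 8.46, 6.07, 6.68 and 6.27 FPKM in NL, 17.6, 18.9 and 16.8 in c-MYC and 4.63, 4.12 and 5.26 in c-MYC/FOXO1AAA. The c-MYC libraries were highest and the c-MYC/FOXO1AAA libraries lowest, with no overlap. It rose 2.6-fold (log2 1.38 ± 0.14 SE, adjusted p = 0.000318) in c-MYC versus NL and fell 3.81-fold (log2 -1.93 ± 0.15 SE, adjusted p = 2.22e-05) in c-MYC/FOXO1AAA versus c-MYC. The other class IIb gene, Hdac10, was not called.

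Hdac11, the class IV enzyme, known to remove fatty acyl groups (chr6:91156665-91174692, plus strand), was at 29.4, 27.6, 23.5 and 30.3 FPKM in NL, 5.24, 5.36 and 6.09 in c-MYC and 3.52, 4.54 and 4 in c-MYC/FOXO1AAA. NL was far above both tumor groups, and c-MYC/FOXO1AAA lay below c-MYC. Hdac11 fell 4.93-fold (log2 -2.30 ± 0.13 SE, adjusted p = 5.67e-07) in c-MYC, and it was the single gene among the 8 lower ones that stayed called when libraries were set to the same FPKM total (log2 -1.38, adjusted p = 0.000117). Antisense transcripts cover 17.9% of its annotated exon bases.

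Of the 7 sirtuin genes, 4 were called lower in c-MYC versus NL and 2 between the tumor groups, where 23.6% and 12.7% of all genes tested were. None of 7 was called higher in either comparison. Sirt3, the main protein deacetylase of mitochondria (chr7:140863666-140882309, minus strand), was at 68.7, 75.3, 72.3 and 69.1 FPKM in NL, 22.9, 18.6 and 25.3 in c-MYC and 5.96, 5.25 and 7.17 in c-MYC/FOXO1AAA. The 3 groups did not overlap and stepped down from NL to c-MYC to c-MYC/FOXO1AAA. It fell 3.22-fold (log2 -1.69 ± 0.13 SE, adjusted p = 1.69e-05) in c-MYC versus NL and again 3.59-fold (log2 -1.85 ± 0.14 SE, adjusted p = 2.12e-05) in c-MYC/FOXO1AAA versus c-MYC. The first of these was lost at the same FPKM total (log2 -0.76, adjusted p = 0.131), and the second was called in all 19 alternatives run. Other genes on the opposite strand cover 12.7% of its exon bases.

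Sirt5, which removes succinyl and related groups in mitochondria (chr13:43365496-43395203, plus strand), was at 17, 12.6, 14.1 and 15.8 FPKM in NL, 16.6, 11.5 and 13.8 in c-MYC and 3.92, 3.71 and 5.87 in c-MYC/FOXO1AAA. NL and c-MYC overlapped, and the c-MYC/FOXO1AAA libraries lay far below. The fall against c-MYC was 3.1-fold (log2 -1.63 ± 0.20 SE, adjusted p = 0.000942). Sirt4, also of mitochondria (chr5:115478010-115484725, minus strand), was at 6.76, 7.57, 7.08 and 6.58 FPKM in NL, 5.1, 2.57 and 2.52 in c-MYC and 5.38, 4.52 and 4.77 in c-MYC/FOXO1AAA. Its c-MYC libraries were below NL and overlapped with c-MYC/FOXO1AAA. Sirt4 fell 2.15-fold (log2 -1.11 ± 0.22 SE, adjusted p = 0.0428) in c-MYC versus NL. That call was lost in 11 of 20 alternatives, among them on leaving out any NL library or c-MYC 2 or c-MYC 3 (adjusted p from 0.059 to 0.164).

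Sirt2, found mostly in the cytoplasm (chr7:28766735-28788661, plus strand), was at 52.5, 49.2, 47.6 and 43.8 FPKM in NL, 22.4, 21.8 and 21.3 in c-MYC and 24.9, 27.6 and 23.8 in c-MYC/FOXO1AAA. Both tumor groups lay below NL. Sirt2 fell 2.2-fold (log2 -1.14 ± 0.09 SE, adjusted p = 0.000211) in c-MYC versus NL, and at the same FPKM total the log2 difference was -0.21. Sirt7, the nucleolar sirtuin (chr11:120618372-120625240, minus strand), was at 52.7, 45.8, 36.9 and 48.6 FPKM in NL, 18.2, 12.6 and 18.2 in c-MYC and 11.3, 9.98 and 10.5 in c-MYC/FOXO1AAA. The 3 groups stepped down without overlap. It fell 2.82-fold (log2 -1.50 ± 0.16 SE, adjusted p = 0.000262) in c-MYC, and at the same FPKM total the log2 difference was -0.57 and no longer called.

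Sirt1 and Sirt6, of the nucleus, were not called in either of these comparisons. Sirt1, which acts on histones and many transcription factors, was at 3.86, 3.97, 2.98 and 3.95 FPKM in NL, 4.3, 4.58 and 4.12 in c-MYC and 6.02, 6.23 and 5.9 in c-MYC/FOXO1AAA, and was not called in any comparison. Sirt6, which acts on H3K9 acetylation, had means of 2.13 ± 0.595, 4.41 ± 0.828 and 9.92 ± 1.41 FPKM (SD) and rose 4.64-fold (log2 2.22 ± 0.22 SE, adjusted p = 3.76e-05) in c-MYC/FOXO1AAA versus NL. Within the summed FPKM of the 7 sirtuins, Sirt3 went from 37 ± 2.55% in NL to 25.7 ± 2.09% in c-MYC and 9.08 ± 1.48% in c-MYC/FOXO1AAA. Sirt6 went from 1.1 ± 0.275% to 5.06 ± 0.402% and 14.7 ± 1.81% (SD). A factor common to a library does not change these shares.

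Hdac11, Sirt3 and Sirt7 fell in c-MYC versus NL, as did the hepatocyte markers, of which 5 of 5 were lower (median log2 -3.67). In c-MYC/FOXO1AAA versus c-MYC, 3 of the 5 were lower and Cyp2e1 was higher (log2 2.75, adjusted p = 0.0136, limma treat). Among Hdac11, Sirt3 and Sirt7, only Sirt3 was called between the tumor groups. Fewer hepatocytes and less of these RNAs per hepatocyte cannot be told apart here, and their part in the falls was not tested.

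**Figure D5:**
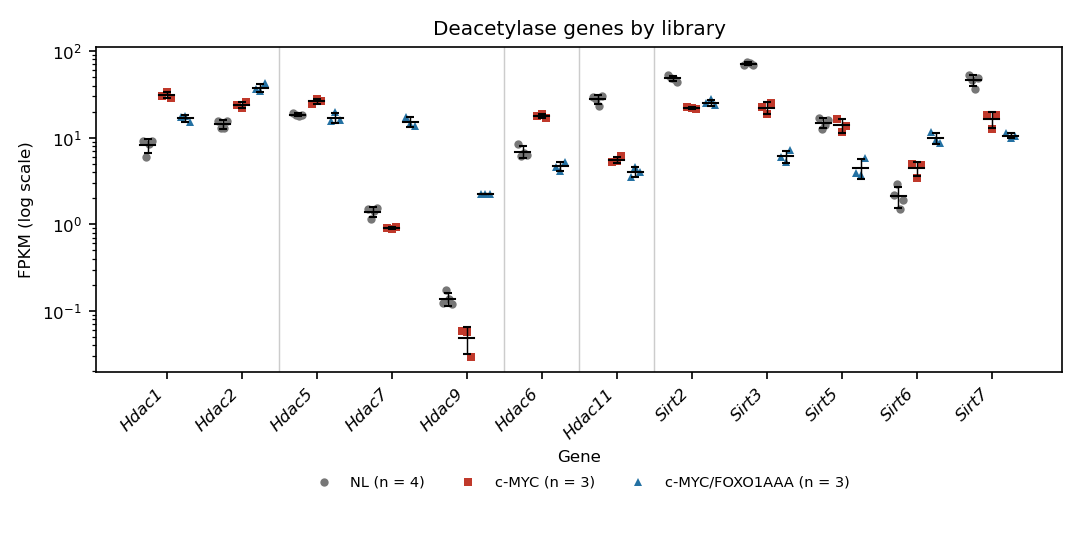
FPKM (y axis, log scale) of histone deacetylase and sirtuin genes (x axis) in each library, with the mean (bar) and SD (whiskers) of NL (circles, n = 4), c-MYC (squares, n = 3) and c-MYC/FOXO1AAA (triangles, n = 3). Hdac7 is at 13.7 to 17.4 in c-MYC/FOXO1AAA and at 0.874 to 1.56 in the other 7 libraries, and Sirt3 steps down from 68.7 to 75.3 in NL to 5.25 to 7.17 in c-MYC/FOXO1AAA (the call of Sirt3 in c-MYC versus NL, not its direction, is lost when libraries are set to the same FPKM total).

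The 22 genes that were tested and called in no comparison were Ezh1, Hdac3, Hdac4, Hdac5, Hdac8, Hdac10, Kdm2a, Kdm4b, Kdm4c, Kdm5b, Kdm6b, Kmt2b, Kmt2c, Kmt2d, Kmt2e, Kmt5b, Setd1b, Setd2, Sirt1, Tet2, Uhrf1bp1 and Uhrf1bp1l. Their log2 differences ran from -0.94 to 0.82 in c-MYC versus NL and from -0.75 to 1.12 in c-MYC/FOXO1AAA versus c-MYC. Hdac8, the class I enzyme that deacetylates the cohesin subunit Smc3, had the highest of these and means of 2.82 ± 0.341, 2.04 ± 0.55 and 4.44 ± 0.609 FPKM (SD), with an adjusted p of 0.053 by limma treat between the tumor groups. Kdm5a, Kdm3b and Setd1a were called in c-MYC/FOXO1AAA versus NL alone and were higher there (log2 0.94, 0.96 and 1.08, adjusted p = 0.0492, 0.0266 and 0.0168).

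Levels between genes can be compared per length only, and with most care for 4 of them, whose longest annotated transcript was over 3 times the length used. Besides Uhrf1, the lengths behind the values of Kdm2b (724 bases), Setd1b (648) and Kmt5c (569) were far below that of the longest annotated transcript (5180, 8857 and 2774 bases). Over the longest transcripts the c-MYC means of these 3 would be 4.27, 6.57 and 16 FPKM in place of 30.6 ± 8.09, 89.8 ± 15.9 and 77.8 ± 14.1 (SD). For Suv39h2, Sirt3, Hdac9 and Hdac4 the longest transcript was 2.36, 2.26, 2.14 and 2.06 times the length used. The sizes of the shares and paralog ratios that hold these genes therefore depend on the length used. Exons of other annotated genes cover over 10% of the exon bases of 6 of the 62, Hdac4, Kdm3b and Setd1a besides Suv39h1, Hdac11 and Sirt3.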

How the data were processed

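RNA sequencing of 10 mouse liver libraries was used, NL (n = 4), c-MYC (n = 3) and c-MYC/FOXO1AAA (n = 3), grouped by their titles. The deposited table holds log2 FPKM for 17069 entries, and the 372 without a symbol (2.179%) were not used. The authors counted reads by gene, changed identifiers to symbols and worked in R with edgeR. The submitters' processing notes name GRCm38 and FastQC 0.11.7. The aligner and counter are not given in the sources used here. The log2 values hold a prior count of 2, scaled to the library. Whole reads were recovered from them, with a single solution for 16620 genes (99.54%, tolerance 0.002 reads), and the printed FPKM are those reads without the prior. The recovery and the test were tested on simulated data.

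Genes at 1 FPKM or more in at least 3 libraries were kept. A group-mean model over all 10 libraries was fitted with limma 3.58.1 (R 4.3.3, statmod 1.5.0) on the deposited log2 values, by treat above 1.5-fold with trend and robust estimation, Benjamini-Hochberg adjusted over 14017 genes. Ratios of paralogs were compared by exact permutation tests. Functional groups, pathway lists and marker lists were written by hand. Some results for genes of these lists are not reported here. The members and lists were chosen with earlier results of these data known. Full values are given for the DNA methyltransferases, Uhrf1, Uhrf2, Tet1 to Tet3, Hdac1 to Hdac3, Sirt1, Sirt3, Ezh1, Ezh2, Suv39h1, Suv39h2, Kdm6b and Kmt5a. They are also given for up to 6 called genes of the greatest change each way, with a mean of 1 FPKM or more in a group, in c-MYC versus NL and in c-MYC/FOXO1AAA versus c-MYC. Gene coordinates come from GENCODE M21 (GRCm38), found by symbol, and the promoters from RefSeq. Alternatives were pseudocounts, filters, scalings, thresholds, variance models, a replicate block, voom on the recovered reads and leaving out each library. In c-MYC versus NL, voom called 3330 genes higher and 3278 lower, against 3435 and 3305.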

Additional observations from a re-analysis of the deposited data

Results flagged for a closer look

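In the 4 NL libraries, 4 of the 62 genes had a library whose gap to the next was above the 95% limit of Dixon's test, where chance gives about 1 in 20. Setd1a was at 2.46 FPKM in NL 3 and at 2 to 2.04 in the others, and Setd2 was at 5.6 in NL 4 and 4.92 to 5 in the others. Sirt1 was at 2.98 FPKM in NL 3 against 3.86 to 3.97, and Uhrf1bp1 was at 4 in NL 3 against 5.18 to 5.25. None of these 4 genes was called in c-MYC versus NL.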

How the results depend on the processing

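Counts of calls moved with the fold threshold and with the scaling. Above 2-fold, 11 genes rose and 3 fell against NL in c-MYC, while 35 were higher with no fold threshold, 44 were higher and 1 lower at the same FPKM total, and 5 were lower with a pseudocount of 1. Over all genes tested, 2192 rose and 2420 fell above 2-fold, 5487 were higher with no threshold, and 2916 were lower with a pseudocount of 1. In c-MYC/FOXO1AAA versus c-MYC, 2 were higher at a mean FPKM of at least 5 (42 genes tested), where 989 of all genes kept were higher. With no fold threshold 12 were higher and 14 lower, where all genes gave 3984 and 3704. In c-MYC/FOXO1AAA versus NL, 15 were higher above 2-fold, 37 with no threshold, and 48 higher and 3 lower at the same FPKM total. Over all genes tested, 3162 were higher above 2-fold and 6225 with no threshold. Leaving out a library of the groups compared gave 17 to 20 higher and 6 to 8 lower, 5 to 6 higher and 6 lower, and 19 to 25 higher and 7 lower, in the same order. Between the tumor groups, 7 were lower without NL 1 and 8 without NL 2, which share in the estimate of the spread. The cause was not tested, beyond what the thresholds and the fewer genes tested bring by construction. The 11 calls between the tumor groups were kept in each of the 3 other scalings.

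At the same FPKM total, among the genes with full values, the log2 difference took the other sign for Hdac7 (0.32), Kdm1b (0.57) and Sirt5 (0.83) in c-MYC versus NL, for Hdac3 (0.16) between the tumor groups, and for Hdac6 (0.55), Setd4 (0.27), Setd6 (0.76), Sirt2 (0.18), Sirt4 (0.59) and Tet2 (0.95) in c-MYC/FOXO1AAA versus NL. Of these, Sirt2 was called before. With quantile normalization between the tumor groups it did so for Ezh1 (-0.00), Hdac3 (0.18), Setd4 (-0.00) and Uhrf1 (0.06). On leaving out a library, Sirt5 in c-MYC versus NL ran from -0.23 to 0.03, above 0 without c-MYC 2, and Hdac3 between the tumor groups from -0.06 to 0.05, above 0 without c-MYC 1 or c-MYC/FOXO1AAA 2. For the ratio of Dnmt3b to Dnmt3a in c-MYC versus NL, a pseudocount of 1 gave -0.52. The ratio of Uhrf1 to Uhrf2 between the tumor groups ran from -0.14 to 0.16 on leaving out a library.

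Same-numbered libraries did not deviate together (correlations from -0.04 to 0.027), so the numbers name libraries only. A replicate block in the fit gave 18 higher and 6 lower calls for c-MYC versus NL, 5 and 6 between the tumor groups, and 21 and 7 for c-MYC/FOXO1AAA versus NL. Of the genes with full values, Kdm7a (adjusted p = 0.069), Setd6 (0.0771) and Sirt4 (0.0558) in c-MYC versus NL lost their call in limma with the block.

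Depth limits the genes of a few reads most: Tet1 was not tested, and the NL levels of Hdac9, Suv39h2 and Dnmt3b and the c-MYC level of Hdac9 rest on few reads. Fold changes from those levels depend on the prior count.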

Other observations

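Genes around these enzymes that were listed beside them moved as follows, by limma treat and on the scaling of the authors. Over all genes tested, 24.5% rose and 23.6% fell in c-MYC versus NL, and 15.9% rose and 12.7% fell between the tumor groups. Of 16 other methyltransferase genes listed, 11 rose in c-MYC versus NL and none of 16 fell, with a median log2 fold change of 1.37. They include the arginine methyltransferases Prmt1 (log2 2.81, adjusted p = 3.05e-07) and Prmt5 (log2 2.68, adjusted p = 1.50e-06) and the H3K79 methyltransferase Dot1l (log2 1.93, adjusted p = 0.000116). Prmt2 was the single call of the 16 between the tumor groups and rose (log2 1.93, adjusted p = 0.00401). Of 16 PRC1 genes, 4 rose and 5 fell in c-MYC versus NL (median log2 -0.00), not far from the shares over all genes. Between the tumor groups 4 rose and none of 16 fell. Bmi1 and Cbx2 were among them (log2 1.18, adjusted p = 0.00306 and log2 2.85, adjusted p = 1.81e-05).

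Of 6 genes that supply or use the methyl donor S-adenosylmethionine, 4 fell and 1 rose in c-MYC versus NL (median log2 -2.79). Mat1a, the liver form of the enzyme that makes the donor, fell (log2 -3.17, adjusted p = 0.000307), and Mat2a, the form of other tissues, rose (log2 0.95, adjusted p = 0.017). Gnmt, which uses up the donor in hepatocytes, fell in c-MYC versus NL (log2 -4.24, adjusted p = 4.53e-07) and again in c-MYC/FOXO1AAA versus c-MYC (log2 -2.40, adjusted p = 0.000224). Of 10 acetyltransferase genes, 3 rose and 1 fell in c-MYC versus NL. Kat2a and Kat2b, paralogs of the same complexes, were called in opposite directions (log2 1.86, adjusted p = 9.63e-05 and log2 -2.23, adjusted p = 5.22e-06). Of 6 methyl-CpG readers and repair genes, Mbd4 and Tdg, which repair mismatches at methylated sites, rose in c-MYC versus NL and Mbd1 fell. At the same FPKM total, the lower calls of Ring1, Pcgf5, Cbx2, Cbx8 and Mbd1 in c-MYC versus NL were lost. No called gene of these lists took the other sign.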
